A study of Drosophila melanogaster with 30 samples.

Results

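The libraries labelled Cdk12 shRNA were compared gene by gene with the libraries labelled LexA shRNA, the control of a Drosophila melanogaster eye study. The members were chosen by sample title and make up 6 of the 30 libraries, with 3 of each label. All flies were males aged 30 days after eclosion, kept at 25 °C in 12 h of light and 12 h of dark. All carried Rh1-GFPKASH, a green fluorescent tag on the nuclear envelope, and Rh1-Gal4, a driver of the shRNA; both use the promoter of the rhodopsin of outer photoreceptors. The libraries were made from nuclear RNA of nuclei pulled out by that tag, with 10 ng of RNA for each, after depletion of ribosomal RNA. The LexA shRNA is directed against a bacterial gene that flies lack, so the control animals also expressed a hairpin. The other 24 libraries came from 8 further knockdowns in the same background, of Spt5, Spt6, dom, TH1, Taf1, Top1, Trl and cnc. The genotype labels of the Cdk12 group count upward over its replicates, from sh-Cdk12 to sh-Cdk13 and sh-Cdk14, while the titles name Cdk12 in each, and the titles were used. Nothing in the labels says that replicates came from separate crosses or how many flies went into each, so p-values measure the spread between these libraries.

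Cdk12 is a cyclin-dependent kinase that works with Cyclin K. It phosphorylates the C-terminal tail of RNA polymerase II during elongation, and in human cells it is known for its role in the expression of long genes and of DNA repair genes. In Drosophila it has been tied to stress-activated transcription, including that of genes under the oxidative stress factor Cnc, and to the limits of heterochromatin.

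The Cdk12-labelled libraries held 10215939 to 10482961 counts in genes and the LexA-labelled libraries 5413749 to 7184260. For every 100 gene counts, the Cdk12 files listed 72.9 to 82.6 reads that aligned to several places and the LexA files 17.7 to 21.7. The Cdk12 and Spt5 files also lacked 2 transgene rows that the files of the other 8 groups held, so against LexA the layout of the files and the knockdown cannot be told apart. The Gal4 transgene stood at 11032, 6542 and 6484 CPM (read counts scaled to a common library total) in Cdk12 replicates 1 to 3, and at 3501, 3463 and 7679 CPM in LexA replicates 1 to 3, here over plain gene counts. Mitochondrially encoded genes took 0.226% to 0.392% of the gene counts in Cdk12 and 0.0788% to 0.197% in LexA. On the first principal component of all 30 libraries, with 41.3% of the variance, Cdk12 replicate 1 lay at -48.2 and replicates 2 and 3 at -11.6 and -11.8. The marker ninaE, which encodes the rhodopsin of outer photoreceptors, stood at 16608, 16014 and 15448 CPM in Cdk12 and at 12869, 15110 and 11460 in LexA. The groups did not overlap, and the log2 difference of 0.29 (SE 0.20) was not called (edgeR adjusted p = 0.862).

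The nuclear RNA counted for the targeted gene was not lower in the libraries that carry its name. Cdk12 (chromosome 3L) was measured at 102, 97.7 and 102 CPM in Cdk12 replicates 1 to 3 and at 90.3, 80.4 and 99.0 CPM in LexA replicates 1 to 3. The groups overlap, since Cdk12 replicate 2 lies under LexA replicate 3. The log2 difference was 0.16 (SE 0.19, edgeR adjusted p = 0.935), and it lay between 0.09 and 0.24 under every alternative setting tried. Against the other 8 knockdown groups the difference was 0.21 (SE 0.14, edgeR adjusted p = 0.726). CycK, which encodes the cyclin partner of the kinase, had 32.5, 35.7 and 28.8 CPM in Cdk12 and 33.9, 49.6 and 42.8 CPM in LexA. Its groups overlap, with a log2 difference of -0.38 (SE 0.17, edgeR adjusted p = 0.671). No depletion of the target was therefore measured in this nuclear RNA, and every direction given here is one between libraries named by their labels. Cytoplasmic mRNA and protein of the target are not measured by these libraries.

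Few genes differed between the 2 labels, and most of those were lower in Cdk12. At an adjusted p under 0.05, edgeR called 29 of the 14888 genes tested (0.195%). Of these, 6 (0.0403%) were higher in Cdk12 and 23 (0.154%) were lower, with sizes from 0.97 to 5.26 on the log2 scale. At an unadjusted p under 0.05 there were 995 genes (6.68%). DESeq2 called 119 of the 7671 genes to which it gave an adjusted p (1.55%), of which 33 were higher (0.430%) and 86 lower (1.12%). Over all genes tested, the 3 Cdk12 values lay above the 3 LexA values for 9.38% and below them for 9.23%, and they did so on the called side for all 29 called genes. The count depended on single libraries, falling to 14 without Cdk12 replicate 2, to 9 without Cdk12 replicate 3, to 16 without LexA replicate 2 and to 11 without LexA replicate 3. Without Cdk12 replicate 1 it was 29 and without LexA replicate 1 it was 26. Csgalnact, CG12911, lncRNA:TS6, CG17267, Mbs and Npc2a were called in each of these 6 fits.

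**Figure D1:**
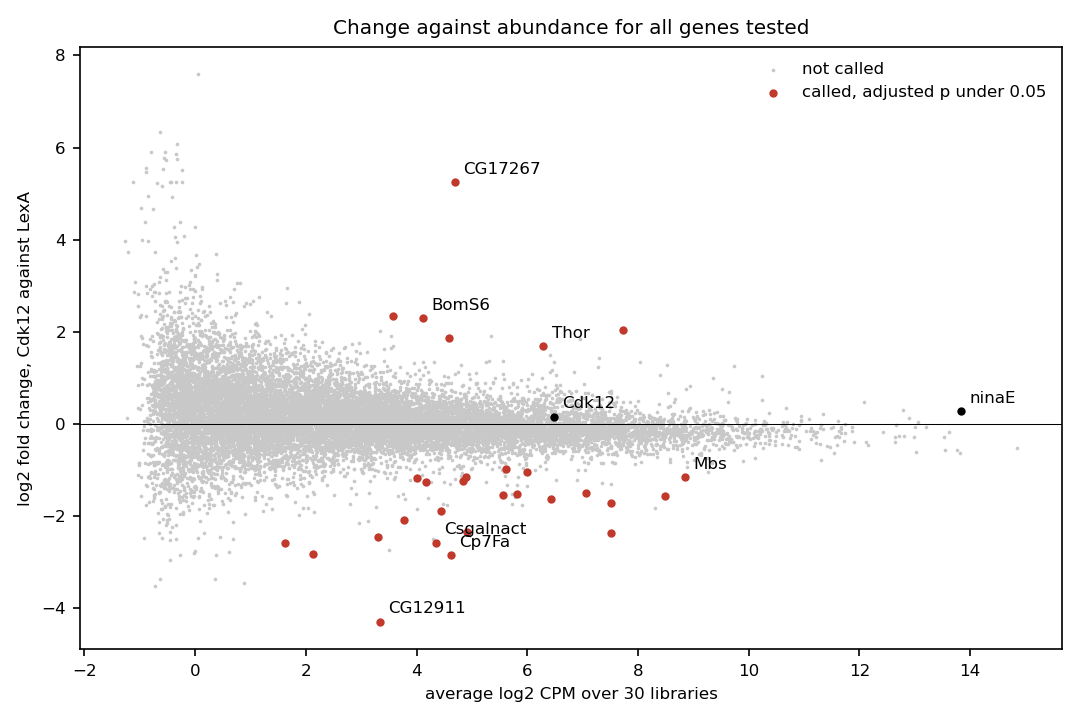
Log2 fold change of Cdk12 against LexA (y axis) for each gene tested, against its average log2 CPM over the 30 libraries (x axis), with the 29 called genes in red and Cdk12 and ninaE in black. CG17267 stands highest among the called genes at 5.26 and CG12911 lowest at -4.29, while Cdk12 lies at 0.16.

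The gene that set the Cdk12-labelled libraries apart most was CG17267, a protein-coding gene without a named product (3R:20737325-20739100, minus strand, BDGP6). It was measured at 237, 175 and 160.0 CPM in Cdk12 replicates 1 to 3 and at 5.42, 8.15 and 1.18 CPM in LexA replicates 1 to 3. The groups are far apart, and the log2 difference was 5.26 (SE 0.67, edgeR adjusted p = 6.15e-05). The same gene ranged from 2.53 to 6.43 CPM in Spt5 and from 1.64 to 16.04 CPM (median 6.18) in the 21 libraries of the other 7 knockdowns. All 3 Cdk12 values therefore lay above those of all other 27 libraries, and the difference from the other 8 knockdown groups was 4.84 (SE 0.31, edgeR adjusted p = 3.37e-11). CG17267 overlaps Cdk2, a cell cycle kinase gene, on the opposite strand. Cdk2 had 8.44, 4.58 and 6.13 CPM in Cdk12 and 4.15, 4.43 and 4.34 CPM in LexA, a difference of 0.57 (SE 0.30, edgeR adjusted p = 0.779). The strand setting of the counting is not given in the sources used here, so reads of overlapping genes on opposite strands may not be separated.

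Among the other higher genes were a translational repressor, an immune peptide and a detoxification enzyme. Thor, the fly 4E-BP that restrains cap-dependent translation, was measured at 92.7, 151 and 175 CPM in Cdk12 and at 38.3, 52.3 and 39.5 CPM in LexA. All Cdk12 values were above all LexA values, with a log2 difference of 1.69 (SE 0.29, edgeR adjusted p = 0.00384). The call was lost without Cdk12 replicate 3 (adjusted p = 0.0547) and without LexA replicate 3 (0.0519). BomS6, a short secreted peptide of the Bomanin family that the Toll pathway induces, had 23.2, 40.3 and 30.2 CPM in Cdk12 and 5.60, 4.96 and 8.48 CPM in LexA. It too showed no overlap and rose by 2.30 (SE 0.41, edgeR adjusted p = 0.00559), a call lost without Cdk12 replicate 2 (0.0543), LexA replicate 1 (0.0517) or LexA replicate 2 (0.0796). Cyp4p2, a cytochrome P450, had 117, 178 and 203 CPM in Cdk12 and 32.5, 56.0 and 32.5 CPM in LexA (log2 difference 2.04, SE 0.36, edgeR adjusted p = 0.00559). Its level in the 21 libraries of the 7 knockdowns other than Spt5 was 109.9 to 472 CPM, so for this gene the LexA libraries lay under that range and the Cdk12 libraries within it. The call was lost without Cdk12 replicate 3 (0.0582), LexA replicate 1 (0.0548) or LexA replicate 3 (0.0816). Cyp4p2 was the 1 gene called of the 85 cytochrome P450 genes tested, whose median log2 difference was 0.30 with 58 positive, beside 0.04 and 0.195% called over all genes. There were 15 of the 85 at an unadjusted p under 0.05, beside 6.68% of all genes, and DESeq2 also called its relative Cyp4p1.

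CG9896 and CG16995, 2 protein-coding genes without a named product, completed the higher set. CG9896 had 43.7, 29.8 and 38.8 CPM in Cdk12 and 11.7, 6.02 and 13.2 CPM in LexA (log2 difference 1.86, SE 0.34, edgeR adjusted p = 0.00643). The mean LexA level, 10.3 CPM, was under the range of the other 7 knockdowns, 11.5 to 40.8 CPM. Unlike for Cyp4p2, LexA replicates 1 and 3 lay within that range, and replicate 2 alone lay under it. CG16995 had 10.4, 6.72 and 12.9 CPM in Cdk12 and 1.99, 2.13 and 1.78 CPM in LexA (log2 difference 2.34, SE 0.45, edgeR adjusted p = 0.0116). Its values were scattered elsewhere, from 0.118 to 2.08 CPM in Spt5 and from 1.02 to 71.5 CPM in the other 7 knockdowns. The call of CG9896 was lost without Cdk12 replicate 3 (0.0507) or LexA replicate 2 (0.109), and that of CG16995 without any LexA replicate (0.0693 to 0.116) or without Cdk12 replicate 3 (0.110).

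Markers of the fat body and of blood cells, tissues in which immune peptides and P450 enzymes are made, were read beside these genes. All 22 tested markers were detected in both groups and none was called, beside 0.195% of all genes. Their summed level was 2018, 3061 and 2851 CPM in Cdk12 and 2336, 1794 and 2178 CPM in LexA, so the groups overlap. The storage protein gene Lsp2 had 149, 233 and 199.6 CPM in Cdk12 and 156, 87.0 and 122 CPM in LexA, and the yolk protein gene Yp1 27.4, 2.05 and 1.04 CPM against 76.7, 66.1 and 28.4 CPM. The part of these tissues in the higher genes was not tested. In RNA from nuclei in bulk, fewer nuclei of a type and less RNA per nucleus cannot be told apart.

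**Figure D2:**
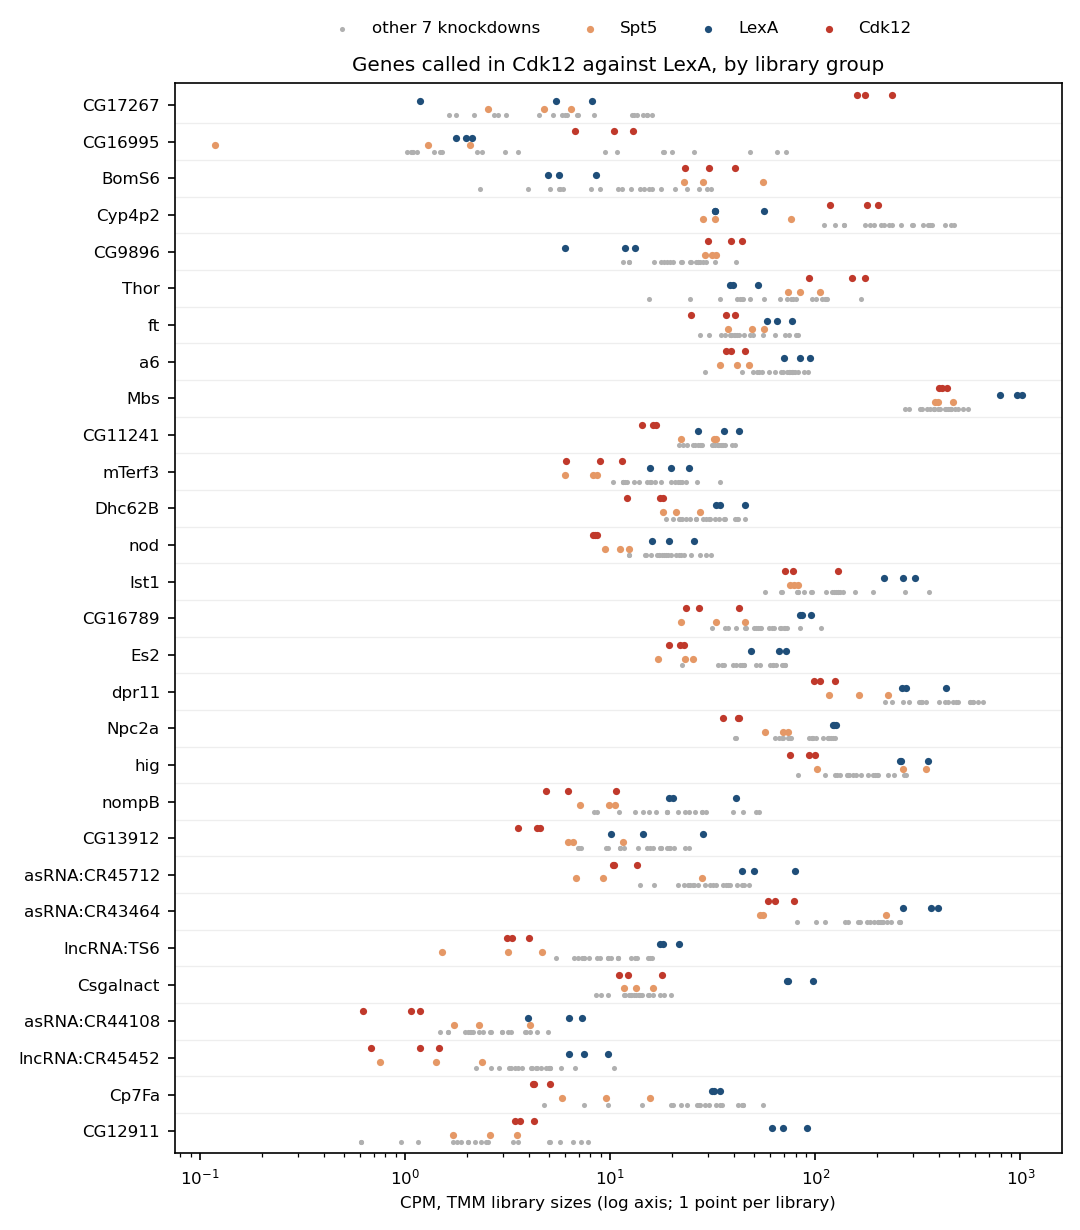
CPM on a log axis (x axis) of the 29 genes called in Cdk12 against LexA (y axis), with 1 point per library for Cdk12 (red), LexA (blue), Spt5 (orange) and the other 7 knockdown groups (grey). CG17267 in Cdk12 lies above every other library, while for Csgalnact, CG12911 and Mbs the LexA libraries stand above all knockdown libraries.

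Some of the called genes were also called against the mean of the other 8 knockdown groups, and the rest were not. Of the 29 genes, 14 were also called against the other 8 knockdown groups, all in the same direction, with 4 higher (CG17267, Thor, BomS6 and CG16995) and 10 lower. Those 10 were lncRNA:TS6, CG13912, Npc2a, lncRNA:CR45452, nompB, dpr11, Es2, nod, Cp7Fa and CG11241. The Cdk12 libraries serve both comparisons, so the second is no independent support for the first. The difference between the 2 comparisons was not tested. Of the 14 genes, CG17267, CG16995 and CG11241 were also called against Spt5 alone, and the others were not. CG16995 was the only one of them not called against the 7 groups other than Spt5 (0.91, edgeR adjusted p = 0.175). Every dom and Spt6 library lay above all Cdk12 values of CG16995.

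Npc2a, a member of the NPC2 family of sterol-binding proteins, was measured at 35.4, 41.8 and 42.5 CPM in Cdk12 and at 124, 127 and 122 CPM in LexA. The values within each group were tight and the groups did not overlap, with a log2 difference of -1.64 (SE 0.27, edgeR adjusted p = 0.00337). The libraries of the other 7 knockdowns ranged from 40.4 to 125 CPM with a median of 96.1 CPM. dpr11, an immunoglobulin-domain surface protein whose binding partner is DIP-gamma and which is known in color photoreceptors of the R7 class, had 125, 106 and 98.5 CPM in Cdk12 and 275, 433 and 264 CPM in LexA. The log2 difference was -1.56 (SE 0.30, edgeR adjusted p = 0.0118), and the 21 libraries of the other 7 knockdowns lay entirely above the Cdk12 values, at 218 to 655 CPM. Spt5 libraries had 116 to 227 CPM, overlapping Cdk12 replicate 1. The call of dpr11 was lost without Cdk12 replicate 2 (adjusted p = 0.123), Cdk12 replicate 3 (0.175) or LexA replicate 2 (0.148). Its partner gene DIP-gamma had 8.54, 12.8 and 9.25 CPM against 12.1, 18.4 and 11.4 CPM (log2 difference -0.46, SE 0.37, edgeR adjusted p = 0.885).

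nompB encodes an intraflagellar transport protein needed to build sensory cilia, and Dhc62B a dynein heavy chain of the axonemal kind. nompB had 10.6, 4.87 and 6.23 CPM in Cdk12 and 19.3, 20.2 and 41.03 CPM in LexA (log2 difference -1.89, SE 0.34, edgeR adjusted p = 0.00559). Dhc62B had 18.1, 17.5 and 12.1 CPM in Cdk12 and 32.7, 34.2 and 45.2 CPM in LexA (log2 difference -1.23, SE 0.25, edgeR adjusted p = 0.0238). Both pairs of groups were separate, with the LexA replicate 3 value the highest in each. The nompB call was lost without Cdk12 replicate 2 (0.103), Cdk12 replicate 3 (0.0904) or LexA replicate 3 (0.134), and the Dhc62B call in all such fits but the one without LexA replicate 1 (0.0562 to 0.402). Of the 10 dynein heavy chain genes tested, Dhc62B was the 1 called by edgeR and by DESeq2 and the 1 at an unadjusted p under 0.05, and their median log2 difference was -0.11. Over all genes 0.195% were called, 6.68% were at an unadjusted p under 0.05 and the median was 0.04.

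nod, a kinesin-like protein that acts on chromosomes in meiosis, had 8.25, 8.38 and 8.62 CPM in Cdk12 and 15.9, 19.3 and 25.4 CPM in LexA (log2 difference -1.26, SE 0.26, edgeR adjusted p = 0.0238). CG13912, without a named product, had 4.52, 4.38 and 3.53 CPM against 14.4, 10.1 and 28.4 CPM (log2 difference -2.08, SE 0.33, edgeR adjusted p = 0.00218). CG11241, also unnamed, had 16.7, 16.2 and 14.3 CPM against 26.7, 35.8 and 42.6 CPM (log2 difference -1.15, SE 0.24, edgeR adjusted p = 0.0238). For these 3 genes and for asRNA:CR44108, the Cdk12 values lay below those of all 24 libraries of the other 8 knockdowns. Such a position was found for 0.154% of all genes below and 0.0739% above, and of the called higher genes CG17267 alone had it. The call of nod was lost in 5 of the 6 fits without 1 library (adjusted p 0.0838 to 0.263), that of CG11241 in the same 5 (0.0766 to 0.302), and that of CG13912 without LexA replicate 3 (0.0505).

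Es2, the fly relative of a human splicing-associated nuclear protein, and Cp7Fa, a gene of the eggshell chorion cluster, lie near each other on chromosome X. Es2 had 23.0, 21.8 and 19.2 CPM in Cdk12 and 48.4, 71.6 and 66.7 CPM in LexA (log2 difference -1.54, SE 0.31, edgeR adjusted p = 0.0221). Cp7Fa had 4.22, 4.19 and 5.09 CPM against 31.2, 32.1 and 34.3 CPM (log2 difference -2.85, SE 0.58, edgeR adjusted p = 0.0238). Neither pair of groups overlapped. Cp7Fa lost its call in each of the 6 fits without 1 library (0.0522 to 0.204) and Es2 in all but the one without LexA replicate 1 (0.0687 to 0.251). The noncoding genes lncRNA:TS6 and lncRNA:CR45452 were at 3.14, 3.99 and 3.32 CPM against 18.1, 21.6 and 17.6 CPM, and at 1.18, 0.682 and 1.45 CPM against 9.75, 7.44 and 6.31 CPM. Their log2 differences were -2.45 (SE 0.30, edgeR adjusted p = 3.65e-05) and -2.81 (SE 0.47, edgeR adjusted p = 0.00384). The call of lncRNA:CR45452 was lost without Cdk12 replicate 2 (0.0546).

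For 15 of the 29 genes the difference from the other 8 knockdown groups was not called, 2 higher (Cyp4p2 and CG9896) and 13 lower. Csgalnact, a glycosyltransferase that starts chondroitin sulfate chains, had the smallest p of all, at 12.2, 11.01 and 17.8 CPM in Cdk12 and 72.8, 73.2 and 97.8 CPM in LexA. The log2 difference was -2.57 (SE 0.24, edgeR adjusted p = 5.15e-07). The 21 libraries of the other 7 knockdowns had 8.55 to 19.7 CPM, and the difference from the other 8 groups was 0.02 (SE 0.18, adjusted p = 0.990). The neighboring gene CG12911 showed the same pattern at 4.22, 3.41 and 3.64 CPM in Cdk12, 69.1, 61.3 and 90.7 CPM in LexA, and 0.606 to 7.76 CPM in the other 7 knockdowns (log2 difference from LexA -4.29, SE 0.51, edgeR adjusted p = 3.54e-05). Mbs, the targeting subunit of myosin phosphatase, had 416, 399 and 438 CPM in Cdk12, 1013, 963 and 798 CPM in LexA, and 272 to 552 CPM in the other 7 knockdowns (log2 difference from LexA -1.15, SE 0.18, edgeR adjusted p = 0.00151). For these genes the LexA libraries stood apart from all knockdowns. Over the 23 lower genes, the mean LexA level lay above the whole range of the other 7 knockdowns in 8 (Csgalnact, CG12911, Mbs, lncRNA:TS6, hig, asRNA:CR44108, asRNA:CR45712 and asRNA:CR43464), and over the 6 higher genes it lay below that range in Cyp4p2 and CG9896. It lay within the range for the remaining 19. For hig, asRNA:CR44108, asRNA:CR45712 and CG9896, at least 1 of the LexA libraries lay inside that range although the mean did not. For hig, Spt5 libraries also reached 344 CPM, above the mean LexA level of 291 CPM.

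The other genes of that set were hig, Ist1, ft, a6, mTerf3, CG16789 and 3 antisense RNAs, beside Dhc62B. hig, a protein of the synaptic cleft, had 74.9, 99.0 and 93.0 CPM in Cdk12 and 262, 258 and 353 CPM in LexA (log2 difference -1.71, SE 0.30, edgeR adjusted p = 0.00460). Ist1, a relative of membrane-remodelling ESCRT-III proteins, had 129, 77.9 and 71.3 CPM against 215, 306 and 266 CPM (log2 difference -1.50, SE 0.32, edgeR adjusted p = 0.0326). ft, an atypical cadherin of planar polarity and growth control, had 36.6, 40.6 and 24.8 CPM against 58.1, 64.8 and 76.9 CPM (log2 difference -0.97, SE 0.21, edgeR adjusted p = 0.0373). All 3 pairs of groups were separate. mTerf3, of the mitochondrial transcription termination factor family, changed by -1.17 (SE 0.26, edgeR adjusted p = 0.0498), a6 by -1.03 (SE 0.22, 0.0401) and CG16789 by -1.51 (SE 0.28, 0.00967). asRNA:CR44108 changed by -2.59 (SE 0.44, 0.00384), asRNA:CR45712 by -2.33 (SE 0.40, 0.00460) and asRNA:CR43464 by -2.36 (SE 0.42, 0.00580). Without single libraries, each of these genes lost its call at least once. The highest adjusted p was 0.0519 for hig (without LexA replicate 3), 0.419 for Ist1, 0.513 for ft, 0.332 for mTerf3, 0.402 for Dhc62B, 0.189 for CG16789 and 0.075 for asRNA:CR44108 (each without Cdk12 replicate 3). It was 0.362 for a6, 0.0722 for asRNA:CR45712 and 0.0866 for asRNA:CR43464, also without Cdk12 replicate 3.

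The 29 genes were also read against Spt5, the group whose files share the layout of the Cdk12 files. In that comparison 1003 genes were called over the transcriptome, 150 of them higher in Cdk12 and 853 lower, which is 6.74% of those tested, and 6 of the 29 were among them with the same direction. These were CG17267 (log2 difference 5.40, edgeR adjusted p = 5.15e-05), CG16995 (3.20, 0.000300), Cyp4p2 (1.86, 0.00392), hig (-1.42, 0.00423), asRNA:CR44108 (-1.48, 0.0352) and CG11241 (-0.88, 0.0203). Differences were near 0 for Csgalnact (-0.01), Mbs (0.00), Es2 (-0.03) and a6 (-0.03), and stood at 0.68 for Thor (adjusted p = 0.147) and -0.74 for Npc2a (0.0920). The mean Cdk12 level lay within the range of the 3 Spt5 libraries for 11 of the 29. Against the 7 groups other than Spt5, 85 genes were called (0.571%), including 17 of the 29. How far the layout of the files enters the calls against LexA was not tested beyond these values.

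Against the mean of the other 8 knockdown groups, edgeR called 59 of the 14888 genes (0.396%), with 29 higher in Cdk12 (0.195%) and 30 lower (0.202%). The count at an unadjusted p under 0.05 was 1339 (8.99%), and DESeq2 called 265 of the 7959 genes to which it gave an adjusted p (3.33%), 97 higher (1.22%) and 168 lower (2.11%). The edgeR count fell to 19, 17 and 12 without Cdk12 replicate 1, 2 and 3. In 45 of the 59 genes LexA was not called different from Cdk12. CG40191, without a named product, had 108, 111 and 124 CPM in Cdk12, 107, 106 and 133 CPM in LexA, and 52.2 to 62.7 CPM in Spt5 (log2 difference from the other 8 groups 0.91, SE 0.12, edgeR adjusted p = 0.000319). bru2, an RNA-binding protein of the Bruno family, had 86.3, 104 and 103 CPM in Cdk12 and 60.7, 72.1 and 35.3 CPM in LexA (1.36, SE 0.21, edgeR adjusted p = 0.000910). For CG40191 the Cdk12 values overlapped those of LexA, while for bru2 they lay wholly above them. Libraries of the other 7 knockdowns reached 157 CPM for CG40191 and 121 CPM for bru2.

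Further genes of small p in that comparison were the eye pigment transporter st and the unnamed CG4839, CG14257, CG6912 and CG4291. st had 13.8, 33.6 and 35.6 CPM in Cdk12 and 15.5, 19.5 and 13.02 CPM in LexA. Replicate 1 fell among the LexA values, and the difference from the other 8 groups was 1.28 (SE 0.19, edgeR adjusted p = 0.000693). On the log2 scale CG4839 was higher by 1.43 (SE 0.20, 0.000319), CG14257 by 1.38 (SE 0.21, 0.000725), CG6912 by 1.64 (SE 0.25, 0.000846) and lncRNA:CR45997 by 1.29 (SE 0.20, 0.000910), while CG4291 was lower by 1.21 on that scale (log2 difference -1.21, SE 0.18, 0.000725). In the comparison with LexA these 5 had adjusted p-values of 0.190, 0.861, 0.933, 0.815 and 0.493. For CG4291 the mean Cdk12 level, 7.33 CPM, lay within the range of the Spt5 libraries, whose highest had 8.51 CPM. That mean also lay within the range of the other 7 knockdowns, 5.22 to 376 CPM with a median of 10.02 CPM.

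The 10 genes next in line in the comparison with LexA had adjusted p-values from 0.0543 to 0.0792. The protein repair methyltransferase gene Pcmt had 9.33, 10.4 and 10.8 CPM in Cdk12 and 18.8, 18.6 and 36.1 CPM in LexA (log2 difference -1.26, SE 0.28, edgeR adjusted p = 0.0543). MtnA, a metallothionein that binds copper and other metals, had 41.1, 60.1 and 57.2 CPM against 27.1, 14.9 and 19.7 CPM (1.36, SE 0.32, edgeR adjusted p = 0.0777). The chorion gene Cp7Fb, next to Cp7Fa, had 3.04, 1.27 and 1.77 CPM against 9.75, 13.1 and 17.95 CPM (-2.74, SE 0.63, edgeR adjusted p = 0.0720). All 3 were separate between the groups without being called. The other 7 were CG13082 (-1.25), the neuropeptide-like precursor Nplp4 (-1.59), CG42808 (0.99), asRNA:CR43609 (1.23), CR40282 (-2.14), CG15196 (-1.75) and CG2321 (-0.71). Large, fully separated but uncalled differences at average log2 CPM of at least 3 included term (2.03), CG7271 (1.92) and 2 amino acid transporters. JhI-21 had 31.7, 79.8 and 96.3 CPM in Cdk12 and 20.9, 21.8 and 12.4 CPM in LexA (1.91, SE 0.50, edgeR adjusted p = 0.153), and mnd 8.54, 19.8 and 25.0 CPM against 6.86, 5.31 and 4.14 CPM (1.70, SE 0.41, edgeR adjusted p = 0.0942). In both, Cdk12 replicate 1 was the lowest of its group.

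Genes of the machinery in which Cdk12 works showed no called change against LexA. None of 30 elongation kinases and factors was called, with a median log2 difference of -0.14 and 22 of 30 negative, beside 0.04 over all genes, of which 0.195% were called. Cdk9, the kinase of the elongation factor P-TEFb, had 10.9, 11.01 and 12.99 CPM in Cdk12 and 13.7, 17.2 and 13.4 CPM in LexA (log2 difference -0.35, SE 0.23, edgeR adjusted p = 0.851). Set2, a histone methyltransferase that travels with the polymerase, had 111, 114 and 129.7 CPM against 177, 162 and 173 CPM (-0.53, SE 0.23, edgeR adjusted p = 0.649). The Set2 groups were separate and the difference was not called. None of 15 genes of 3 prime end processing (median 0.04) and none of 24 splicing genes (median -0.17) was called. At an unadjusted p under 0.05 edgeR had 4 elongation genes, 2 of 3 prime end processing and 2 of splicing, and DESeq2 called 0 in each of these lists. Over all genes, the share under that unadjusted p was 6.68%.

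The gene groups for which Cdk12 is known elsewhere were likewise uncalled. Of 29 DNA damage and repair genes none was called and the median was 0.08. Over all genes 0.195% were called and the median was 0.04, a share at which lists of this size would hold few or no calls. mei-41, the fly ATR checkpoint kinase, had 12.9, 12.7 and 17.0 CPM in Cdk12 and 22.7, 19.7 and 20.5 CPM in LexA (-0.56, SE 0.22, edgeR adjusted p = 0.555). Of 36 genes of the Cnc pathway and oxidative stress none was called (median 0.04), with the glutathione transferase GstE6 at 4.91, 7.50 and 9.25 CPM against 4.33, 2.13 and 4.73 CPM (0.95, SE 0.49, edgeR adjusted p = 0.777). None of 22 heat shock and chaperone genes (median -0.05) and none of 20 heterochromatin factors (median 0.00) was called. Against the other 8 knockdown groups the heat shock list had a median of -0.90, beside 0.04 over all genes, and also no call. In that comparison the medians were 0.12 for repair, -0.18 for the Cnc list and 0.07 for heterochromatin factors. At an unadjusted p under 0.05 edgeR had 1 repair gene, 1 gene of the Cnc list and 0 of the other 2 lists, and DESeq2 called 0 in all 4. Of all genes, 6.68% were under that unadjusted p. Counts were also simulated for all 30 libraries, from their sizes and the mean of each gene over them. Changed genes were drawn from those with a mean above 1 CPM. Of genes raised by 2-fold 28% were called, and of genes raised by 4-fold 72%. Smaller changes may therefore go uncalled at this depth and replicate number, and recovery was not tried for genes of lower level.

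Thor was the 1 called member of 19 genes of the unfolded protein and integrated stress responses, whose median was -0.05, beside 0.195% called over all genes. DESeq2 also called Thor alone, and edgeR had 2 of the list at an unadjusted p under 0.05. The transcription factor of that response, crc (the fly ATF4), had 121, 244 and 299.7 CPM in Cdk12 and 159, 181 and 135 CPM in LexA (0.48, SE 0.34, edgeR adjusted p = 0.859), and the sensor kinase Ire1 75.4, 168 and 187 CPM against 94.4, 106 and 85.0 CPM (0.59, SE 0.27, edgeR adjusted p = 0.700). In both genes replicates 2 and 3 of Cdk12 were above LexA and replicate 1 was not. BomS6 was the 1 called member of the 49 innate immunity genes tested and of the 12 Bomanins tested. Over all genes 0.195% were called by edgeR. There were 11 of the 49 and 6 of the 12 at an unadjusted p under 0.05, beside 6.68% of all genes, and DESeq2 also called the Toll adaptor gene Myd88. The Bomanins had a median of 0.90, with 11 of 12 positive and 5 fully above LexA, a position held by 9.38% of all genes. BomS5 had 7.36, 7.404 and 10.8 CPM against 2.53, 1.59 and 4.34 CPM (1.60, SE 0.49, edgeR adjusted p = 0.289), and BomS3 23.8, 32.6 and 31.5 CPM against 14.98, 6.55 and 21.1 CPM (1.05, SE 0.37, edgeR adjusted p = 0.450).

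Photoreceptor genes were not called either. The 34 phototransduction genes had a median of -0.17 with 26 negative, the 21 rhabdomere genes -0.26 with 16 negative, and the 28 synapse and excitability genes -0.15 with 21 negative. Over all genes 0.195% were called. In these 3 lists 11, 4 and 7 genes lay fully below LexA, beside 9.23% of all genes, and 2, 1 and 0 fully above, beside 9.38%. Against the other 8 knockdown groups the medians were positive, at 0.13, 0.10 and 0.19, so the negative medians held against LexA only. The light-sensitive channel gene trpl had 17414, 10802 and 10306 CPM in Cdk12 and 19431, 18809 and 21645 CPM in LexA (-0.64, SE 0.36, edgeR adjusted p = 0.813), and all Cdk12 values were lower. All 8 activity-induced genes were negative, with a median of -0.60 and no call. Hr38, a nuclear receptor gene switched on by neuronal activity, had 344, 156 and 61.1 CPM against 677, 962 and 330.2 CPM (-1.81, SE 0.72, edgeR adjusted p = 0.569). The groups overlap at Cdk12 replicate 1, and by library the list lay at -0.12, -0.85 and -0.93 relative to LexA. The clock gene cwo spread from 27.3 to 170 and 396 CPM over Cdk12 replicates 1 to 3, against 55.4, 45.2 and 64.5 CPM in LexA (1.85, SE 0.74, edgeR adjusted p = 0.592). At an unadjusted p under 0.05 edgeR had 3 activity-induced genes, 1 clock gene and 0 of the phototransduction, rhabdomere and synapse lists, and DESeq2 called 0 in these 5. Over all genes, the share under that unadjusted p was 6.68%. The time of day of collection is not given in the sources used here.

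Of the lists of other cells, none held a called gene, beside 0.195% called over all genes. The medians were -0.02 for 13 genes of inner photoreceptors, 0.04 for 20 of cone, pigment and corneal cells, 0.14 for 20 of glia, 0.06 for 21 of other neurons and -0.05 for 21 of muscle. At an unadjusted p under 0.05 edgeR had 2 genes of the cone, pigment and corneal list, 2 of the fat body and blood cell list and 0 of the others, and DESeq2 called 0 in all of them. Of all genes, 6.68% were under that unadjusted p. The muscle list lay at -0.64 in Cdk12 replicate 1 and at 0.10 and 0.13 in replicates 2 and 3. All 12 mitochondrially encoded protein genes were positive, with a median of 1.18 and 7 fully above LexA, beside 9.38% of all genes, and none was called. By library that list lay at 0.84, 1.21 and 1.52 in Cdk12 and at 0.04, -0.55 and 0.65 in LexA, so the groups are separate. The 84 ribosomal protein genes had a median of 0.53 with 81 positive, at 0.18, 0.69 and 0.78 in Cdk12 and 0.01, -0.34 and 0.34 in LexA, and these values overlap. No ribosomal protein gene was called by edgeR, while DESeq2 called RpL29, RpL41 and RpS29, all higher, and 0 of the mitochondrial genes. The edgeR fit had 17 ribosomal protein genes and 7 mitochondrial ones at an unadjusted p under 0.05, beside 6.68% of all genes. The 163 odorant, gustatory and ionotropic receptor genes, which belong to other sense organs, had a median of 0.10 and no call, with 8 at an unadjusted p under 0.05 and 0 called by DESeq2. The share of the cytoplasm and mitochondria in the nuclear preparations was not tested.

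**Figure D3:**
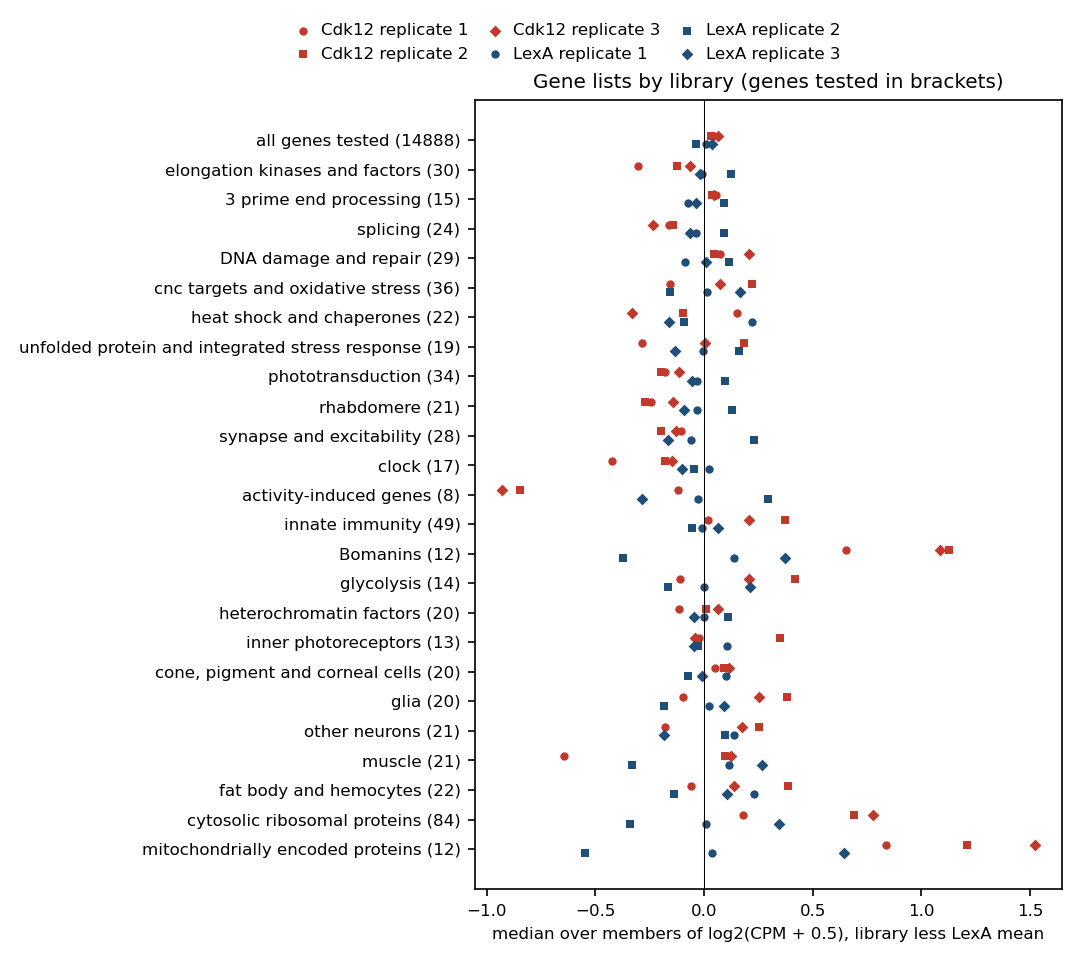
Median over the members of each gene list of log2(CPM + 0.5) in a library less the LexA mean (x axis), for the 3 Cdk12 (red) and 3 LexA (blue) libraries, with the genes tested in brackets (y axis). Bomanins and mitochondrially encoded proteins lie to the right in all Cdk12 libraries, and activity-induced genes to the left in replicates 2 and 3.

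Some called genes lay close together. Of the 29, 11 had another called gene within 100 kb, making 7 pairs, of which 6 changed in the same direction. Since 23 of the 29 were lower, most pairs would share a direction. Windows of 100 kb around 7 of the called genes held 14 to 33 tested genes. How often other sets of genes lie this close was not counted. On chromosome 2L Npc2a was followed by asRNA:CR43464 after 11.1 kb and by asRNA:CR45712 after a further 2.93 kb, all 3 lower, and lncRNA:CR45452 and lncRNA:TS6 lay 21.1 kb apart. Uncalled genes of the same stretch were low as well. The midpoint of lncRNA:CR42874 lay 1.56 kb from that of Npc2a, and it had 36.4, 26.1 and 26.6 CPM in Cdk12 and 87.0, 83.8 and 84.8 CPM in LexA (log2 difference -1.52, SE 0.43, edgeR adjusted p = 0.219), a difference that DESeq2 called. Nplp4, at 20.13 kb, had 10.1, 8.48 and 9.04 CPM against 23.3, 19.5 and 40.8 CPM (-1.59, SE 0.36, edgeR adjusted p = 0.0593). Both pairs of groups were separate. On 2R Csgalnact and CG12911 were separated by 1.19 kb, and on X Es2 and Cp7Fa by 7.54 kb. hig and Cyp4p2 changed in opposite directions and share sequence on 2R, where Cyp4p2 lies inside hig on the other strand. Its relatives Cyp4p1 and Cyp4p3, also inside hig, had differences of 1.13 (SE 0.28, edgeR adjusted p = 0.0942) and 0.45 (SE 0.33, edgeR adjusted p = 0.866). On 3R CG1137, without a named product, lies inside dpr11 on the same strand, so their reads may not be separated. It had 18.1, 17.0 and 14.96 CPM in Cdk12 and 36.6, 81.1 and 32.9 CPM in LexA (log2 difference -1.59, SE 0.39, edgeR adjusted p = 0.0942), and against the other 8 knockdown groups it was called (-1.78, adjusted p = 0.00745). Nearby CG1138 (-1.32, edgeR adjusted p = 0.649) and glob2, a globin gene (-1.28, 0.493), were not called. Within 100 kb, the uncalled genes had median differences of 0.19 around CG17267, 0.16 around Csgalnact, -0.21 around Npc2a, 0.37 around lncRNA:TS6, 0.05 around Es2, 0.00 around hig and 0.16 around dpr11. Of the called genes, 20 of 29 (69.0%) overlapped an annotated entry on the other strand, beside 41.4% of all genes tested. These entries include transposable element insertions, the only ones counted for nompB. Of the called genes, 5 (17.2%) were noncoding, beside 1936 of the 14888 genes tested. No test was made of these shares.

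**Figure D4:**
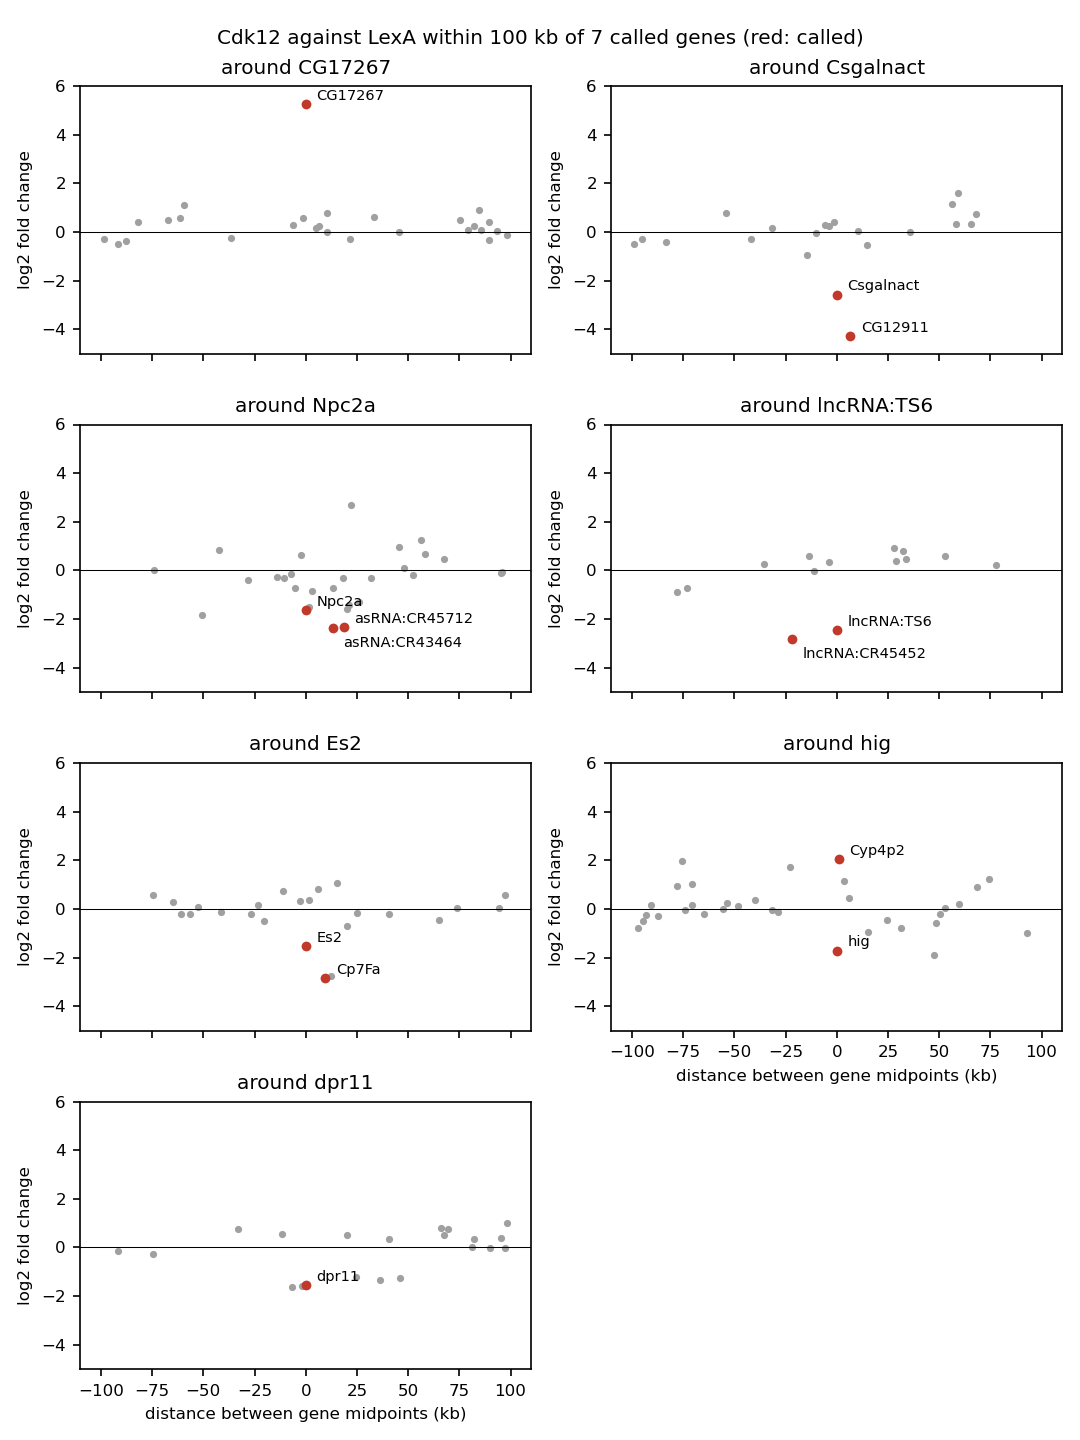
Log2 fold change of Cdk12 against LexA (y axis) of genes within 100 kb of 7 called genes, by the distance between gene midpoints in kb (x axis), with called genes in red. CG17267 stands alone at 5.26, and Csgalnact and CG12911 lie low together. Around Npc2a and dpr11, uncalled genes also lie low, such as Nplp4 at -1.59 and CG1137 at -1.59.

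Long genes, for which loss of the kinase is known to matter in human cells, differed little as a class. Among protein-coding genes split by annotated span into 10 groups of about equal number, the median log2 difference went from 0.29 in the shortest group (228 to 840 bp) to -0.06 in the longest (from 16031 bp upward). By library, the longest group lay at -0.11, -0.06 and 0.01 in Cdk12 and at 0.03, 0.10 and -0.12 in LexA, and the shortest at 0.29, 0.18 and 0.18 in Cdk12 and 0.08, -0.19 and 0.10 in LexA. The labels overlap for the longest genes and are separate for the shortest. In the longest group, edgeR called 0 of 1258 genes higher and 4 lower, beside 0.0403% and 0.154% of all genes. It had 68 of the 1258 at an unadjusted p under 0.05, beside 6.68% of all genes, and DESeq2 called 0 higher and 9 lower of 1213, beside 0.430% and 1.12%. The 105 genes tested on chromosome 4, which is largely heterochromatic, had a median of 0.12 and no call, with 5 at an unadjusted p under 0.05, and DESeq2 called CG33521.

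**Figure D5:**
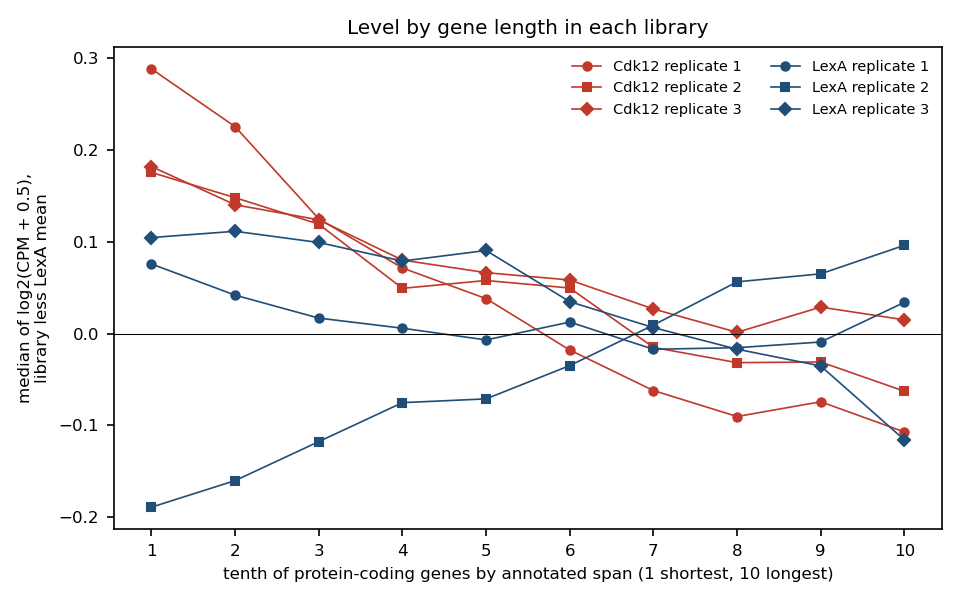
Median over genes of log2(CPM + 0.5) in a library less the LexA mean (y axis) for protein-coding genes in 10 groups of about equal number by annotated span, from shortest to longest (x axis), in the 3 Cdk12 (red) and 3 LexA (blue) libraries. Cdk12 libraries run from 0.29, 0.18 and 0.18 down to -0.11, -0.06 and 0.01, and LexA replicate 2 runs the other way, from -0.19 to 0.10.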

How the data were processed

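Nuclear RNA of outer photoreceptors was sequenced in 30 libraries, 3 for each of 10 shRNA labels. The authors deposited 1 table of raw counts per gene and library. The submitters' processing notes name Trimmomatic 0.39, HISAT2, HTSeq and the BDGP6 build. The annotation release, strand setting and file versions are not given in the sources used here. Of 17807 gene rows, 17710 were matched to symbols and coordinates of Ensembl release 115 (BDGP6). The 5 summary rows that HTSeq writes amount to 68.9% to 72.5% of all counts in the Cdk12 files and 59.2% to 64.7% in the LexA files, and they were kept out of library sizes and tests. Depth was 10215939 to 10482961 gene counts in Cdk12 and 5413749 to 7184260 in LexA.

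All 30 libraries entered 1 edgeR 4.0.16 quasi-likelihood fit (R 4.3.3) with TMM scaling, a mean per group and filterByExpr (minimum count 10, minimum total 15), which left 14888 genes. P-values were adjusted by Benjamini-Hochberg over all of them and genes under 0.05 were called. Contrasts were Cdk12 minus LexA and Cdk12 minus the mean of the other 8 knockdown groups. Standard errors were taken as the absolute log2 difference over the root of the F statistic. Levels in CPM rest on TMM library sizes, and levels of lists by library use log2(CPM + 0.5). The test was tested on simulated data (200 changed genes), with 3 false calls. The comparison and the gene lists were chosen with earlier results of these data known. Named genes are Cdk12, CycK, ninaE, all genes called against LexA, the 10 uncalled genes of smallest p, up to 10 in each direction of largest separated change at average log2 CPM of at least 3, up to 3 members per list and 10 genes of smallest p against the other knockdowns. Cdk2, DIP-gamma, Cdk9, BomS3, BomS5, Cyp4p1, Cyp4p3, Lsp2, CG1137, CG1138, glob2 and list members called by DESeq2 alone were named after their values were seen. Alternatives were RLE scaling, DESeq2 1.42.0, other filters, fewer libraries, a covariate of reads outside genes, a replicate block, other library sizes, other reference groups and leaving out each library.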

Additional observations from a re-analysis of the deposited data

Results flagged for a closer look

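The count of reads aligned to several places, which enters no comparison, had a median of 73 per 100 gene counts in the Cdk12 libraries, above the 17.7 to 21.7 of the LexA controls. The Spt5 libraries, whose files share the layout of the Cdk12 files, had 59.2 to 94.5.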

How the results depend on the processing

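The 29 calls against LexA became 40 with RLE scaling, 33 without a filter and 28 with library sizes that leave out mitochondrial and ribosomal RNA genes. They became 46 at a minimum count of 50, 50 with the covariate of reads outside genes, 106 in a fit of the 6 libraries alone, 119 with DESeq2, 1003 with Spt5 as the reference and 85 with the 7 groups other than Spt5. Leaving out 1 library gave 9 to 29. The 59 calls against the other 8 knockdowns became 124 at a minimum count of 50, 265 with DESeq2 and 12 to 19 without 1 Cdk12 replicate. With the replicate number as a block the counts were 35, with all 29 kept, and 68. Same-numbered deviations correlated at 0.01, 0.05 and -0.05, and differently numbered ones at -0.0955 to 0.106. With 3 libraries a group this cannot settle whether the numbers pair the libraries, and the main fit did not pair them. Of the 29 genes, 6 were called in all 14 settings with LexA as the reference (CG12911, Npc2a, Mbs, Csgalnact, CG17267 and lncRNA:TS6), and none of the 29 changed sign in them. Of 712 list medians compared, 119 moved by more than the spread between libraries. The cause of these changes was not tested. In the fit of fewer libraries 11738 genes were tested. With 3 libraries a group, simulated 2-fold losses were called in 26% of cases.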
